A study of Rattus norvegicus with 9 samples.

Results

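Synapsins and other proteins of the presynaptic vesicle cycle were followed in the prefrontal cortex of individual rats through 9 genes, Syn1, Syn2, Snap25, Vamp2, Stx1a, Syp, Dnm1, Rab3a and Slc17a7. The probe sets followed were those whose only gene symbol in the array annotation was one of these 9 and they numbered 14 of the 15923 probe sets in the deposited table. In all, 10411 genes had a probe set with a single symbol. A probe set is a group of short probes that together report 1 transcript. Of the 14, 13 passed the filter on low values and 1, the second probe set of Vamp2, did not. The main probe set of a gene, the one with the higher mean, was 1390196_at for Syn1, 1370431_at for Syn2, 1387073_at for Snap25, 1369974_at for Vamp2, 1387360_at for Stx1a, 1368276_at for Syp, 1368292_at for Dnm1, 1369816_at for Rab3a and 1368987_at for Slc17a7. Second probe sets were 1369251_a_at for Syn1, 1369482_a_at for Syn2, 1371160_at for Vamp2, 1387359_at for Stx1a and 1368986_at for Slc17a7. All 9 animals were male Lewis rats, an inbred strain, singly housed and given no treatment, and they formed 1 group. They came from a first experiment in which 20 rats went through behavioural testing, and frontal cortex without the olfactory bulb was taken 12 days after the last testing day. One array was hybridised per rat, so the spread between arrays holds both animal and technical differences, and precision is limited by there being 9 arrays. Each rat carried 4 behavioural values in the labels, for startle, for locomotion, for the plus maze and for sugar feeding, with no units, and the comparisons asked whether expression of these genes went with behaviour among animals of the same strain.

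Neurons release transmitter from small vesicles that are filled by transporters in their membrane, held in clusters near the release site by synapsins, fused with the plasma membrane by the SNARE proteins and recovered by endocytosis. Synapsins are coat proteins on the cytoplasmic side of the vesicle, and their phosphorylation by protein kinase A and calcium/calmodulin-dependent kinase lets vesicles leave the cluster during activity. In cortex, most excitatory terminals load glutamate through the transporter made by Slc17a7.

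The promoters of the 3 genes whose expression went furthest with startle below, Syn1, Dnm1 and Slc17a7, and of Syn2, the paralog of Syn1, are shown to let their sequences be compared. Each runs from 250 bases before to 50 bases after the gene's start, 5′ to 3′ on the gene's strand, as given by RefSeq on build GRCr8. The windows lie at chrX:3725495-3725794 on the plus strand for Syn1, chr3:36046240-36046539 on the minus strand for Dnm1, chr1:104785955-104786254 on the plus strand for Slc17a7 and chr4:149858669-149858968 on the plus strand for Syn2. Capitals mark matches, on either strand, to the GC box GGGCGG, the cAMP response element TGACGTCA or the Egr motif GCGNGGGCG.
Syn1: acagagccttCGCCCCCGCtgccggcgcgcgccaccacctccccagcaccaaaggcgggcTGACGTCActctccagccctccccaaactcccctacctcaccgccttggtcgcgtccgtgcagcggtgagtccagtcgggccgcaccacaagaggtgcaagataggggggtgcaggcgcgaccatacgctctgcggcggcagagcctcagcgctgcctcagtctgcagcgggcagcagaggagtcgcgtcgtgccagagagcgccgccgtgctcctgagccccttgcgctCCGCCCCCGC
Dnm1: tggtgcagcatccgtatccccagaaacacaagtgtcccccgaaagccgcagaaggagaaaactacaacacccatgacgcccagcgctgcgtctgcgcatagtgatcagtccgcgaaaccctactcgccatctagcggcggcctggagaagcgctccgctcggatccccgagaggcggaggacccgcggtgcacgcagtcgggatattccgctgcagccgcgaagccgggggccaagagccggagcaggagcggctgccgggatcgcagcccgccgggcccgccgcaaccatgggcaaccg
Slc17a7: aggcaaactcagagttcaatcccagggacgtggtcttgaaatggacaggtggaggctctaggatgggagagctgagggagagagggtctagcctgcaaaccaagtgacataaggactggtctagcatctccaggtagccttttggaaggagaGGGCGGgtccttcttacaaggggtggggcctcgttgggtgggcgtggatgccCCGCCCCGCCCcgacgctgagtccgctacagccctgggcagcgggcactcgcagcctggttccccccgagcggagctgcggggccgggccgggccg
Syn2: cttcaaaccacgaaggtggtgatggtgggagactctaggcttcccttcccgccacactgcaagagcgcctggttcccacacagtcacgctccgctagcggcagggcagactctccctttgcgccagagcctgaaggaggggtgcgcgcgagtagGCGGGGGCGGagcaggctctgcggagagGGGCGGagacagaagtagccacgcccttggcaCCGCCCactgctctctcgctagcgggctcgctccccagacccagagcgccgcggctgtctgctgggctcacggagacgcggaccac

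The RefSeq table held promoters for 8 of the 9 genes, all but Snap25. The GC box matched in 7 of the 8, against 33.1% of all 33469 promoters in the table, and the promoter without it was that of Dnm1. The 8 windows were 62.7% to 71.0% G or C, above the median of 51.7% over all promoters. A cAMP response element was found only in Syn1, with its first base at -190 from the start, and 1.83% of all promoters held one. The Egr motif matched in 4 of the 8, those of Syn1, Syn2, Vamp2 and Syp, against 4.98% of all. In Syn1 it lay at -240 and at 42, where it overlapped the GC box at 41, and in Syn2, Vamp2 and Syp every Egr match overlapped a GC box. The TATA motif TATAAA, present in 14.2% of all promoters, was not found in the 8 windows. A match describes letters in the window and is not evidence of a bound site.

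The deposited values are on a log2 scale, so a difference of 1 is a 2-fold difference in signal, and levels of different probe sets cannot be set against each other. Median log2 signal per array ran from 4.11 to 4.28, and correlations between arrays from 0.988 to 0.998. Earlier results of these data showed that the arrays of rats 8 and 9 stand apart from the rest, so each relation was computed over all 9 rats and again over rats 1 to 7. Startle was 67.7 and 230 in rats 8 and 9, against 458.6, 295.8, 501, 244.7, 175.4, 352.9 and 153.7 in rats 1 to 7, listed by rat number. Rats 3 and 1 therefore startled most, and rats 8 and 7 least.

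Spread between rats differed among the genes. Snap25, the plasma membrane SNARE that contributes a pair of helices to the fusion complex, varied least, with an SD of 0.104 on the log2 scale and a 1.26-fold range, and 17.0% of the 9520 probe sets kept had a smaller SD. Stx1a, the syntaxin that completes the plasma membrane side of that complex, had an SD of 0.133, the vesicle GTPase gene Rab3a 0.139 and the vesicle glycoprotein gene Syp 0.142. The main probe sets of these 4 genes lay below the median SD of 0.190 over all probe sets kept. The second Stx1a probe set, with an SD of 0.325, lay above that median. The main probe sets of the other 5 genes lay above it too, with SDs of 0.235 for Dnm1, 0.247 for Syn1, 0.250 for Syn2, 0.296 for Vamp2 and 0.368 for Slc17a7. Where a gene had a second probe set past the filter, it was the more variable of the pair, up to 0.478 and a 2.48-fold range for Slc17a7.

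**Figure D1:**
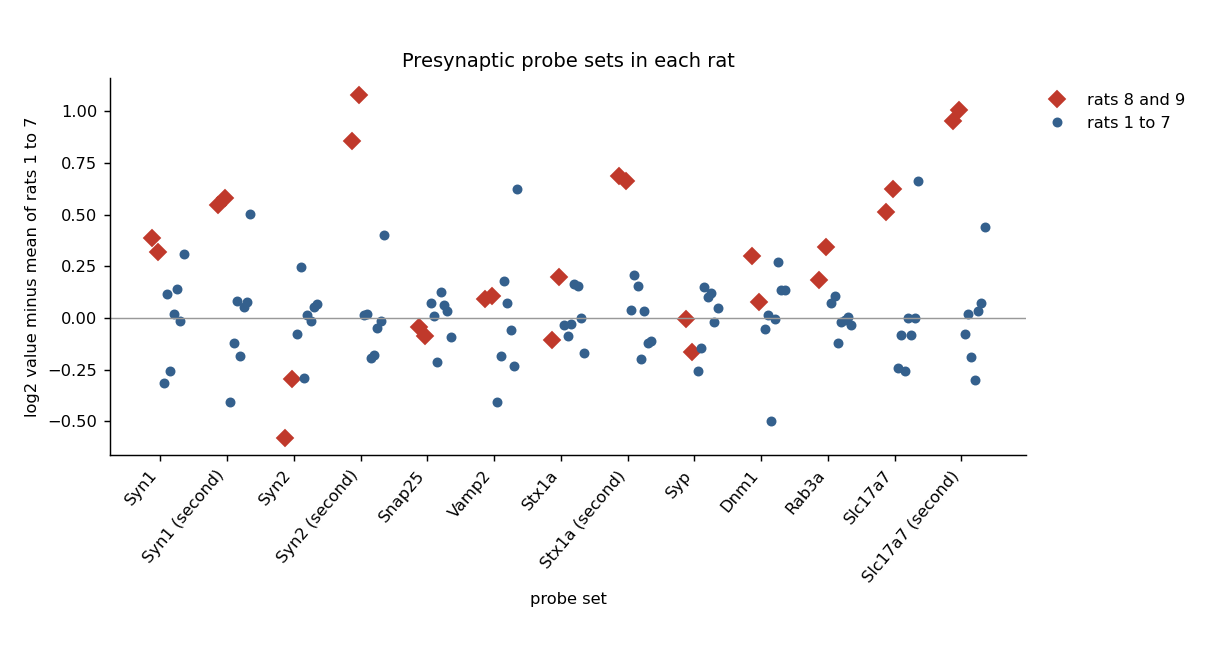
Log2 value of each of the 13 probe sets in each rat, minus the mean of rats 1 to 7 for that probe set, with red diamonds for rats 8 and 9 and blue circles for rats 1 to 7 (vertical axis, log2). The diamonds of the second probe sets of Syn2 and Slc17a7 sit highest, with means 0.97 and 0.98 above the circles, whereas the 9 points of Snap25, with an SD of 0.104, crowd the zero line.

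In rats 8 and 9 both arrays lay beyond the range of the other 7 for 7 of the 13 probe sets, against 26.9% of all probe sets kept. On 6 of the 7 they were higher, where 9.33% of all probe sets were higher, and on 1, the main probe set of Syn2, they were lower, where 17.6% of all were lower. For Slc17a7 the second probe set read 9.83 and 9.88 in rats 8 and 9, against 8.80, 8.90, 8.69, 8.58, 8.91, 8.95 and 9.32 in rats 1 to 7, a difference in means of 0.98. The main Slc17a7 probe set showed a difference of 0.57 but overlapped, because rat 7 at 12.11 was above both. For Rab3a, whose product links vesicles to the active zone, rats 8 and 9 had 11.31 and 11.48 and the other 7 at most 11.24, a difference of 0.26. Snap25, Vamp2, Syp, Dnm1 and the main probe set of Stx1a overlapped between these rats. As the labels put all 9 rats in 1 group, these differences carry no test.

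Different probe sets of a gene sometimes placed rats 8 and 9 on opposite sides of the others. For Syn2 the main probe set read 9.31 and 9.59 in rats 8 and 9, against a lowest value of 9.59 and a highest of 10.14 in rats 1 to 7, a difference in means of -0.44 with rat 9 just under the lowest. Its second probe set read 10.42 and 10.65, against a lowest of 9.37 and a highest of 9.97 in rats 1 to 7, a difference of 0.97. The correlation between these probe sets was -0.587 over 9 rats (exact permutation p = 0.0979) and 0.433 over rats 1 to 7 (exact permutation p = 0.310). Startle slopes of Syn2 are given for both, and correlations of Syn2 with other genes for the main probe set alone. For Stx1a the second probe set was higher in rats 8 and 9 by 0.68 and the main by 0.05, and they correlated at 0.030 over 9 rats (exact permutation p = 0.938). The probe sets of Syn1 correlated at 0.808 (exact permutation p = 0.0101) and those of Slc17a7 at 0.869 (exact permutation p = 0.00733). Without rats 8 and 9 these were 0.667 (exact permutation p = 0.0962) and 0.809 (exact permutation p = 0.0516). For Syn1 both probe sets were higher in rats 8 and 9, by 0.35 and 0.56, although on the main probe set rat 9 exceeded rat 7 only in the third decimal.

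Of the 4 measures, startle had the most presynaptic probe sets below the unadjusted threshold, and rats that startled more had less Syn1, Dnm1 and Slc17a7 signal, although no slope passed the adjusted threshold. Slopes are in log2 units per SD of startle, which was 142. Of the 13 probe sets, 12 had a negative slope, whereas 3664 of all 9520 did. At an unadjusted limma p under 0.05 there were 5 of 13 probe sets, covering 3 of the 9 genes, all with negative slopes, against 4.34% of all probe sets with a negative slope and 13.2% in either direction. None of the 13, and 0.0% of the 9520, passed an adjusted p under 0.05 for startle, locomotion, plus maze or sugar feeding. The median slope of the 9 genes was -0.052, and that of all 6793 genes kept 0.021. In bulk tissue, fewer cells of a type and less RNA per cell cannot be told apart.

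**Figure D2:**
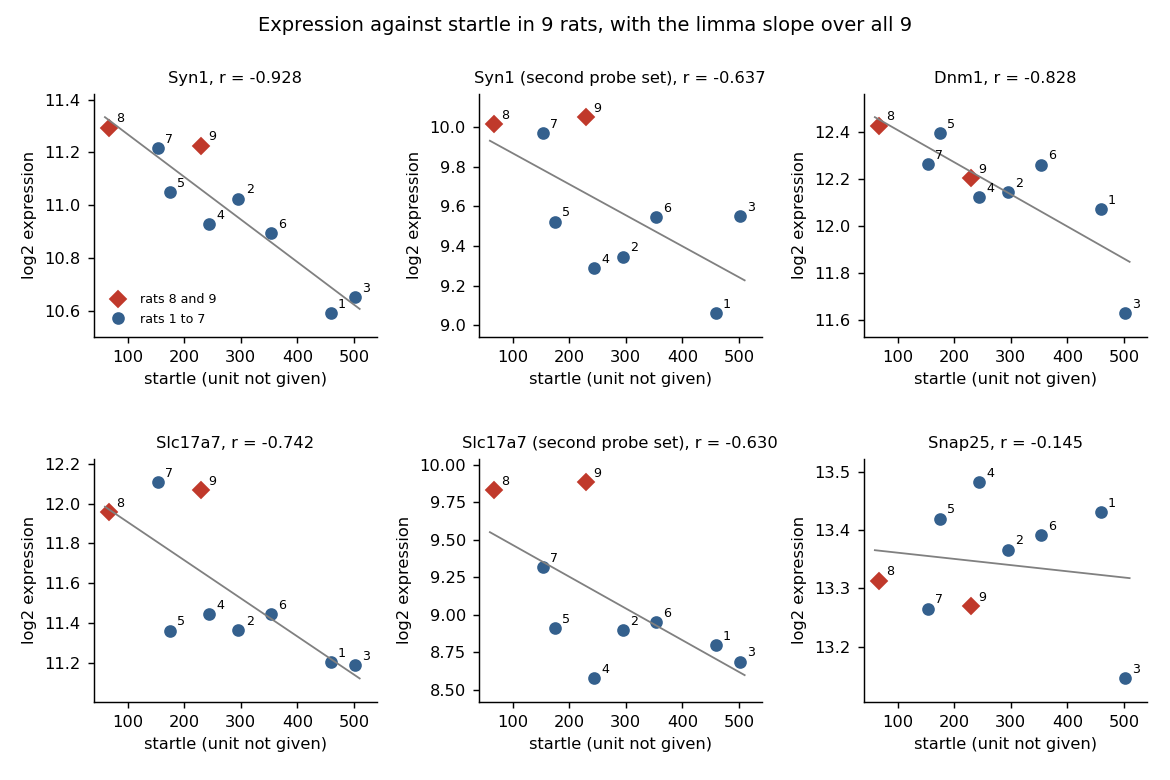
Log2 expression (vertical axis) against startle (horizontal axis, unit not given) in each of 9 rats for 6 probe sets, with red diamonds for rats 8 and 9, blue circles for rats 1 to 7, rat numbers beside the points and the limma slope over all 9 as a line. Syn1 is lower where startle is higher, r = -0.928, with rats 1 and 3 lowest, Dnm1 has r = -0.828 with rat 3 set apart at the bottom, and Snap25 has r = -0.145.

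Syn1, encoding synapsin I, read 11.29 and 11.22 in rats 8 and 9, against 10.59, 11.02, 10.65, 10.93, 11.05, 10.89 and 11.22 in rats 1 to 7. The lowest values belonged to rats 1 and 3, which startled most, and the highest to rat 8, which startled least. The slope was -0.23 ± 0.039 (SE, n = 9; limma adjusted p = 0.245 over all probe sets), with r = -0.928 and rho = -0.917 (exact permutation p = 0.000559 and 0.00131). Over rats 1 to 7 the slope was -0.22 and r = -0.936 (exact permutation p = 0.00357). Leaving out rats 1 and 3, whose startle lay farthest from the median, r was -0.803 (exact permutation p = 0.0312). Leaving out each rat in turn gave slopes of -0.24 to -0.21 and an unadjusted limma p under 0.05 in 9 of 9 fits. The second Syn1 probe set, which read 10.01 and 10.05 in rats 8 and 9 and 9.06 to 9.97 in rats 1 to 7, had a similar slope of -0.22 ± 0.092 (limma adjusted p = 0.362) but a looser relation, r = -0.637 (exact permutation p = 0.0668). Without rats 8 and 9 its r was -0.499 (exact permutation p = 0.255), and it stayed under 0.05 by limma in 5 of 9 fits without 1 rat.

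Dnm1 encodes the neuronal dynamin, the GTPase that cuts recycling vesicles off the plasma membrane. It read 12.43 and 12.21 in rats 8 and 9, against 12.07, 12.14, 11.63, 12.12, 12.40, 12.26 and 12.27 in rats 1 to 7. Rat 3, with the highest startle, had by far the lowest value, and the other 8 rats lay within 12.07 to 12.43. The slope was -0.19 ± 0.050 (limma adjusted p = 0.359), with r = -0.828 and rho = -0.867 (exact permutation p = 0.00199 and 0.00451). Without rat 3 the slope was -0.11, over 1.5 times smaller but still under 0.05 unadjusted, while the other fits without 1 rat reached -0.23. In rats 1 to 7 r was -0.789 (exact permutation p = 0.0137), and without rats 1 and 3 it was -0.670 (exact permutation p = 0.101), so at that reduced range the relation no longer passed.

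Slc17a7, whose product VGLUT1 loads glutamate into vesicles, read 11.96 and 12.07 in rats 8 and 9, against 11.20, 11.36, 11.19, 11.44, 11.36, 11.44 and 12.11 in rats 1 to 7. Rats 7, 8 and 9 formed a high set near 12, the other 6 lay between 11.19 and 11.44, and the lowest were again rats 3 and 1. The slope was -0.27 ± 0.085 (limma adjusted p = 0.359), with r = -0.742 and rho = -0.750 (exact permutation p = 0.0257 and 0.0255). With rats 8 and 9 left out r was -0.707 (exact permutation p = 0.0335) but rho was -0.750 (exact permutation p = 0.0663). Without rats 1 and 3 r was -0.576 (exact permutation p = 0.183), which no longer passed. A fit that gave the arrays of rats 8 and 9 their own term had a slope of -0.20, which was no longer under 0.05 unadjusted. The second Slc17a7 probe set had a slope of -0.30 ± 0.125 over 9 rats (limma adjusted p = 0.362), r = -0.630 (exact permutation p = 0.0694), but -0.13 over rats 1 to 7, and it stayed under 0.05 unadjusted in 3 of 9 fits without 1 rat.

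The slopes of the remaining genes had intervals that include 0, and the 3 genes encoding SNARE proteins were among them. Snap25 had a slope of -0.015 with a 95% interval of -0.11 to 0.079, Stx1a -0.00099 with -0.11 to 0.11, and Syp, the vesicle glycoprotein that binds the vesicle SNARE, -0.027 with -0.14 to 0.091. Vamp2, the vesicle SNARE itself, had -0.13 with -0.34 to 0.071, and Rab3a -0.052 with -0.16 to 0.058. These intervals, all of main probe sets, leave out a slope as negative as that of Syn1 for Snap25, Stx1a, Syp and Rab3a, but not for Vamp2. The second Stx1a probe set had -0.11 with -0.34 to 0.13, which does not leave out such a slope. No difference between slopes was tested. Leaving out 1 rat moved the Vamp2 slope between -0.068, without rat 7, and -0.26, without rat 3, the only such fit in which it was under 0.05 unadjusted. Syn2 gave 0.049 with -0.14 to 0.24 on its main probe set and -0.27 with -0.56 to 0.017 on its second. In rats 1 to 7 the Syn2 slopes were -0.10 and -0.11, so all 9 main probe sets had negative slopes there. Of all 6793 genes, 3372 did. The same 3 genes, Syn1, Dnm1 and Slc17a7, had an unadjusted limma p under 0.05 on their main probe sets, against 12.6% of all genes. Of the 13 probe sets only those 3 were under it, against 14.6% of all probe sets in either direction and 5.59% with a negative slope. The second probe sets of Syn1 and Slc17a7, under 0.05 over 9 rats, were not in rats 1 to 7.

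Fewer relations were seen with the other 3 measures, among these genes as among all probe sets. On locomotion 1 of the 13 probe sets, that of Syp, had an unadjusted limma p under 0.05, with a negative slope, against 1.96% of all probe sets in either direction and 1.34% with a negative slope. Syp read 11.34 and 11.18 in rats 8 and 9, against 11.09, 11.20, 11.50, 11.45, 11.47, 11.33 and 11.40 in rats 1 to 7. Rat 1, with the highest locomotion value of 1102, had the least Syp, and rat 3, with the lowest of 536, the most. The slope was -0.098 ± 0.043 per SD (limma adjusted p = 1.00), with r = -0.692 and rho = -0.550 (exact permutation p = 0.0381 and 0.133). Without rats 1 and 3 r was -0.221 (exact permutation p = 0.632), so the relation rested on those animals. Other slopes on locomotion ran from -0.15 for Vamp2 to 0.12 for the second probe set of Syn2.

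On the plus maze none of the 13 passed an unadjusted p of 0.05 by limma, where 2.99% of all probe sets did. Vamp2 came nearest, with a slope of -0.18 ± 0.081 (limma adjusted p = 0.999) and r = -0.614 (exact permutation p = 0.0898). Its ranks followed the measure more closely, with rho = -0.824 (exact permutation p = 0.00948) over 9 rats and -0.811 (exact permutation p = 0.0381) over rats 1 to 7. Vamp2 read 10.07 and 10.08 in rats 8 and 9, against 9.57, 9.80, 10.16, 10.05, 9.92, 9.75 and 10.61 in rats 1 to 7, so that the rats with the 3 highest plus maze values, 1, 2 and 6, had the 3 lowest Vamp2 values. On sugar feeding none of the 13 passed, where 1.4% of all probe sets did, and slopes ran from -0.078 for Syn2 to 0.037 for Stx1a. Without rat 4, which had the highest sugar feeding, the slope of the main Syn2 probe set was -0.31 and under 0.05 unadjusted. In that fit 1329 of all 9520 probe sets were under 0.05 unadjusted. Over 9 rats the second Syn2 probe set had a slope of 0.023. In all, 52 relations of a probe set with a measure were computed.

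**Figure D3:**
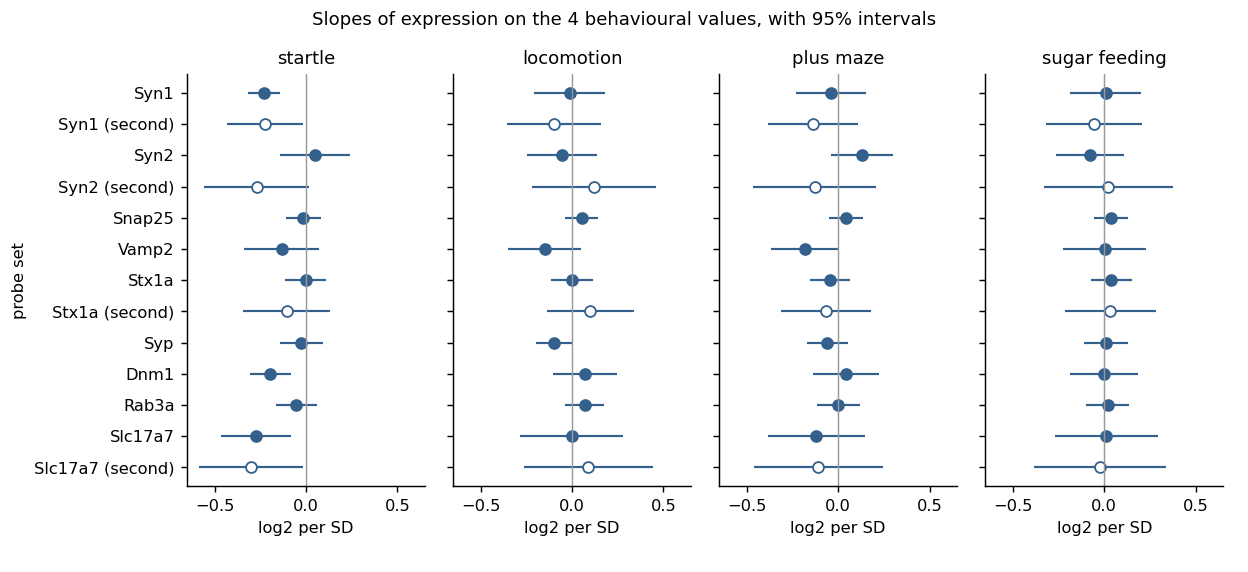
Slope of each of the 13 probe sets on each of 4 behavioural values over 9 rats (horizontal axis, log2 per SD of the measure), with 95% intervals from limma, filled circles for main probe sets and open circles for second ones. On startle the intervals of Syn1, Dnm1 and Slc17a7 lie wholly below 0, whereas nearly all other intervals span it.

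Set against each other, the 9 genes did not vary as a unit. Over the 36 pairs of main probe sets the median r was 0.0016 across 9 rats, with 18 pairs positive, and over all pairs of the 6793 genes it was 0.070. Over rats 1 to 7 it was 0.194 with 21 pairs positive, against 0.023 over all pairs. The permutation p values for pairs are not adjusted for the 36 pairs. Syn1 and Slc17a7 were closest, with r = 0.867 and rho = 0.767 (exact permutation p = 0.00271 and 0.0214) over 9 rats and r = 0.788 (exact permutation p = 0.0149) over rats 1 to 7. Dropping the 2 rats with the most extreme Syn1 gave r = 0.865 (exact permutation p = 0.0339). Syn1 also went with Dnm1, r = 0.723 and rho = 0.783 (exact permutation p = 0.0177 and 0.0172). Over rats 1 to 7 these were 0.690 and 0.821 (exact permutation p = 0.0748 and 0.0341). Dropping the same 2 rats with the most extreme Syn1 gave r = 0.466 (exact permutation p = 0.288), which no longer passed. Vamp2 and Slc17a7 had r = 0.660 (exact permutation p = 0.0478) but rho = 0.467 (exact permutation p = 0.212), and 0.287 (exact permutation p = 0.519) without the 2 farthest rats.

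Opposite variation was seen as well. Syp and Rab3a, both vesicle membrane proteins, had r = -0.662 and rho = -0.767 (exact permutation p = 0.0484 and 0.0214) over 9 rats, and r = -0.847 (exact permutation p = 0.0155) over rats 1 to 7. Dropping the 2 rats with the most extreme Syp gave r = -0.717 (exact permutation p = 0.0708), which no longer passed. Snap25 and Vamp2, partners in the same SNARE complex, had r = -0.568 and rho = -0.767 (exact permutation p = 0.110 and 0.0214). Over rats 1 to 7 these were -0.556 and -0.500 (exact permutation p = 0.197 and 0.267), and neither passed. Dropping the 2 rats with the most extreme Snap25 gave r = -0.833 (exact permutation p = 0.00813). On their main probe sets the synapsins Syn1 and Syn2 had r = -0.207 over 9 rats (exact permutation p = 0.598) and 0.672 over rats 1 to 7 (exact permutation p = 0.0923), a sign that turned with rats 8 and 9. The second Syn2 probe set, which was higher in rats 8 and 9, was not part of these pairs.

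**Figure D4:**
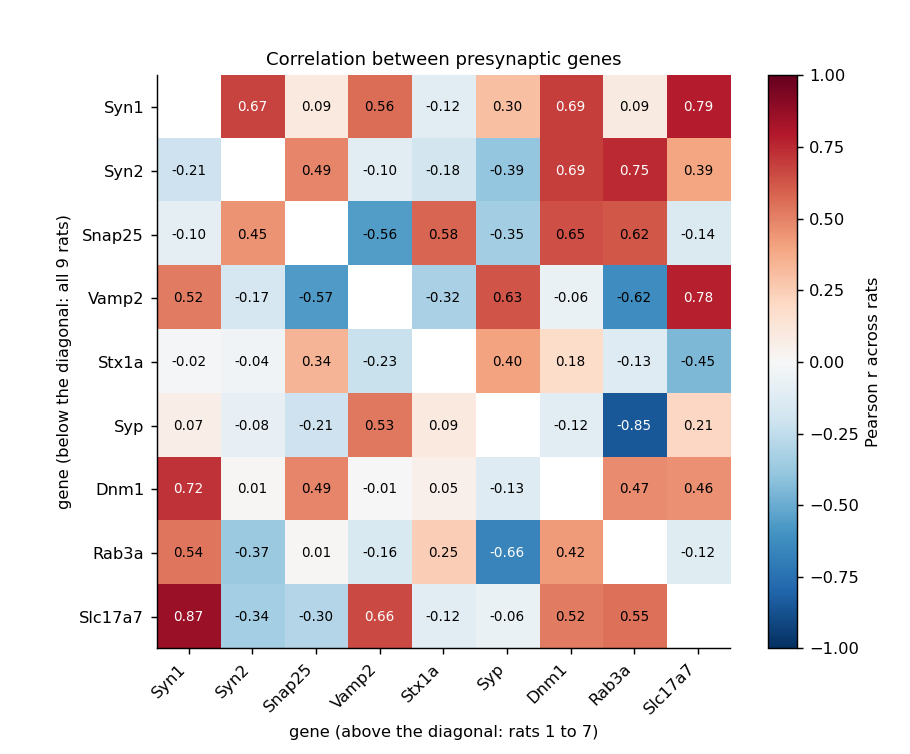
Pearson r between the main probe sets of the 9 genes across all 9 rats (below the diagonal) and across rats 1 to 7 (above it), on a colour scale from -1 in blue to 1 in red. The Syn1 and Slc17a7 cell is dark red on both sides, at 0.87 and 0.79, and the Syp and Rab3a cell is blue in both, at -0.66 and -0.85.

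Among 6770 other genes kept, those most like the main probe set of each member were named by Pearson r over the 9 rats, as a description without a test. Syn1 was closest to Mapre3, which encodes a protein of growing microtubule ends, at r = 0.962 and 0.992 over rats 1 to 7, and then to Ubald1 at 0.951. Slc17a7 was closest to Atp6v0a1, a subunit of the proton pump that acidifies vesicles, at 0.970 and 0.953 over rats 1 to 7, and to R3hdm2 at 0.963. Dnm1 was closest to the autophagy gene Map1lc3a at 0.949 and to the actin-binding protein gene Dbnl at 0.947. Rab3a was closest to Rab1b, a GTPase of the early secretory pathway, at 0.964, and Syp to Urm1 at 0.948. Snap25 was closest to Cfap97 at 0.972, Vamp2 to Slc25a15 at 0.914, Stx1a to Nhsl3 at 0.917 and Syn2 to Arl6ip1 at 0.977. The number of genes with r above 0.9 differed widely, 87 for Syn2, 26 for Slc17a7, 9 for Syn1 and 1 for Stx1a. Over rats 1 to 7 the closest gene stayed the same for Syn1 and Vamp2 and was another for the remaining 7.

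Other parts of the release machinery had slopes of both signs on startle. Of all 6793 genes, 37.9% had negative slopes and 12.4% were under 0.05 unadjusted. Negative slopes made up 54.5% of the SNARE fusion genes kept, 35.7% of the vesicle membrane proteins and calcium sensors and 53.8% of the active zone genes. Of 16 SNARE fusion genes listed, 11 were kept, 5 with positive and 6 with negative slopes and none under 0.05 unadjusted. Of 23 vesicle membrane proteins and calcium sensors 14 were kept, 9 positive and 5 negative, with Sv2a, a vesicle glycoprotein, at -0.18 ± 0.070 (limma adjusted p = 0.359) and the calcium sensor gene Syt7 at 0.10 ± 0.041 (limma adjusted p = 0.362). Of 20 active zone genes 13 were kept, 6 positive and 7 negative, with Caskin1, a scaffold that binds CASK, at -0.18 ± 0.067 (limma adjusted p = 0.359) and Erc1, an active zone organiser, at 0.058 ± 0.025 (limma adjusted p = 0.373). For Erc1 the small slope followed startle closely, r = 0.933 (exact permutation p = 0.000132). Without rats 8 and 9 the Caskin1 slope was -0.083 and the Erc1 slope 0.059, and neither was under 0.05 unadjusted, whereas Sv2a at -0.19 and Syt7 at 0.13 still were. Among vesicular transporters other than Slc17a7 only Slc32a1, which loads GABA, was kept of 6 listed, at -0.16 (limma adjusted p = 0.488), and in rats 1 to 7 its slope was -0.31 and under 0.05 unadjusted. Slc17a6 and the monoamine and acetylcholine transporters Slc18a1, Slc18a2 and Slc18a3 fell below the filter.

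Genes of vesicle retrieval, the step in which Dnm1 acts, were mixed. Of 25 endocytosis and clathrin coat genes 20 were kept, 14 with negative and 6 with positive slopes, where 2572 of all 6793 genes were negative, and 3 of the 20, or 15.0%, were under 0.05 unadjusted, all negative, against 12.4% of all genes in either direction. Without rats 8 and 9, 12 of the 20 were negative, against 3372 of the 6793 genes. Epn1, a clathrin adaptor, had a slope of -0.32 ± 0.107 (limma adjusted p = 0.359), Bin1, which bends membrane and binds dynamin, -0.20 ± 0.069 (limma adjusted p = 0.359) and Pacsin1, another dynamin partner, -0.75 ± 0.300 (limma adjusted p = 0.362). Without rats 8 and 9 the Pacsin1 slope was -0.29 and that of Bin1 -0.10, while Epn1 stayed at -0.33. The list's median of -0.038 stood beside 0.021 for all genes.

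Of 18 kinase and phosphatase genes that act on synapsin and dynamin 16 were kept, 7 positive and 9 negative, where 2572 of all 6793 genes were negative. Under 0.05 unadjusted were 2 of the 16, or 12.5%, against 12.4% of all genes. Prkaca, the catalytic subunit of protein kinase A, which phosphorylates synapsin, had a slope of -0.22 ± 0.051 (limma adjusted p = 0.359), r = -0.857 (exact permutation p = 0.00389). Ppp3cb, a catalytic subunit of calcineurin, which dephosphorylates dynamin, had a slope of 0.14 ± 0.043 (limma adjusted p = 0.359), r = 0.806 (exact permutation p = 0.00933). In rats 1 to 7 these slopes were -0.18 and 0.11, both still under 0.05 unadjusted. On the receiving side of the synapse, 14 of 20 postsynaptic density genes were kept, 4 positive and 10 negative, against the same 2572 of 6793. Their median slope was -0.055, beside -0.052 for the 9 presynaptic genes. In rats 1 to 7 again 10 of the 14 were negative, against 3372 of the 6793 genes. Over 9 rats 1 of the 14, Shank1, was under 0.05 unadjusted at -0.20 ± 0.076 (limma adjusted p = 0.359), against 12.4% of all genes. Its slope was -0.094 in rats 1 to 7 and not under 0.05 there.

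**Figure D5:**
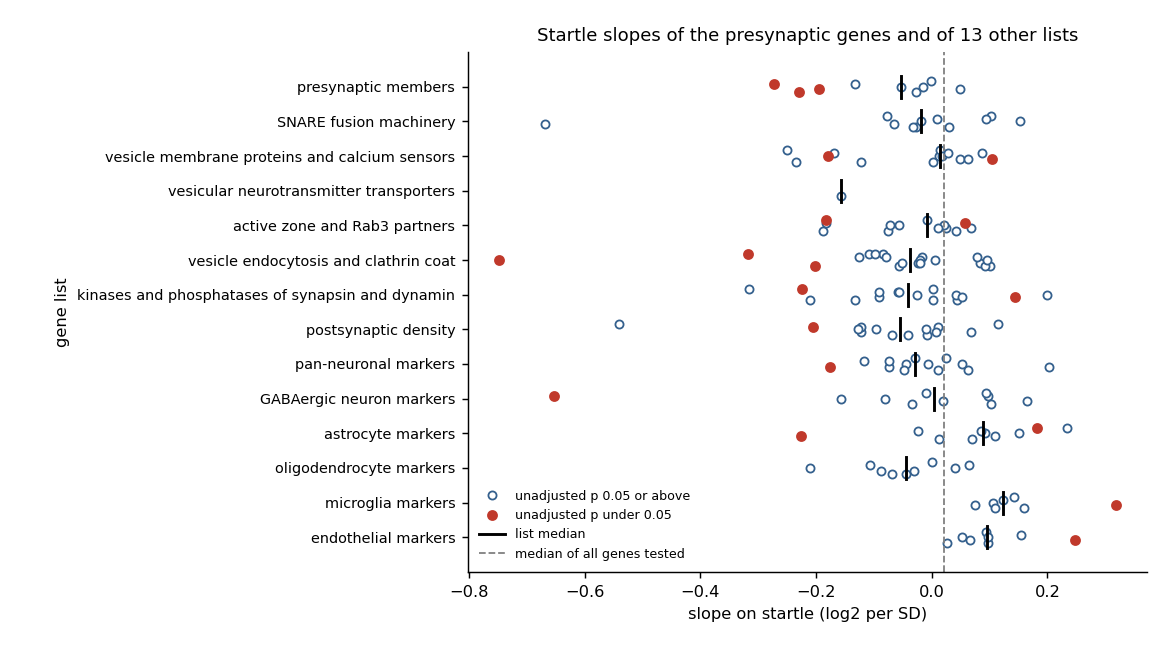
Slope on startle (horizontal axis, log2 per SD) of each kept gene in the presynaptic set and in 13 other lists, over 9 rats, with filled red points for an unadjusted limma p under 0.05, a bar at each list's median and a dashed line at the median of all genes, 0.021. Microglia and endothelial markers lie wholly above 0, and the presynaptic genes lie mostly below it.

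Markers of other cell types were read against the 4221 of 6793 genes with positive slopes on startle and the 12.4% under 0.05 unadjusted. All 7 microglia markers kept of 12 had positive slopes, and 1 of them was under 0.05, P2ry12 at 0.32 (limma adjusted p = 0.362), which was 0.091 and no longer under 0.05 in rats 1 to 7. All 8 endothelial markers kept of 12 were positive as well, and 1 was under 0.05, Slco1a4 at 0.25 (limma adjusted p = 0.359), with 0.27 in rats 1 to 7. Of 10 astrocyte markers kept of 12, 8 were positive, and the 2 under 0.05 went opposite ways, the glutamate transporter gene Slc1a3 at 0.18 (limma adjusted p = 0.359) and the filament gene Gfap at -0.23 (limma adjusted p = 0.362). In rats 1 to 7 these were 0.17 and -0.15, neither under 0.05. There 7 of the 10 astrocyte markers were positive, against 3421 of the 6793 genes. Under 0.05 unadjusted there were 3 of the 10, all positive, against 12.6% of all genes. Summed linear signal ran from 589 to 931 for microglia markers, from 1200 to 1855 for endothelial markers and from 25425 to 32912 for astrocyte markers, each highest in rat 3. Among microglia markers Cx3cr1, Itgam, Ptprc and Cd68 were below the filter, and among endothelial markers Pecam1 and Ocln. Pan-neuronal markers, 13 kept of 14, were 5 positive and 8 negative, and GABAergic markers, 10 kept of 12, were 5 positive and 5 negative. Both lists were lowest in rat 3, by 0.13 and 0.28 log2 below their means over the 9 rats. In rat 8, which startled least, they were 0.12 and 0.084 below. In rats 1 to 7, 10 of 13 pan-neuronal markers had negative slopes, with 3 under 0.05 unadjusted, and 9 of 10 GABAergic markers did, with 1 under 0.05. Over the same rats 3372 of the 6793 genes were negative and 12.6% were under 0.05 in either direction. Oligodendrocyte markers, 9 kept of 14, were 3 positive and 6 negative, with summed signal from 6942 to 10777. Rat 3 is also the rat with the highest startle and the lowest Dnm1 and Slc17a7, and the part of cell type content in the presynaptic slopes was not tested.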

How the data were processed

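Total RNA of prefrontal cortex from 9 rats was measured on 1 Affymetrix rat expression array each. The authors deposited log2 signal per probe set, and the submitters' processing notes name GCRMA and R 2.6.2. GCRMA adjusts for background from the base content of the probes, puts arrays on a common distribution and combines the probes of a set. Settings were not given in the sources used here. Identical values on 2 or more arrays occurred in 47.0% of the probe sets kept and in 0 of the 13 member probe sets.

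From the 15866 probe sets left after removing 57 controls, the lowest 40% by mean were dropped, leaving 9520 with means of at least 3.22. The array annotation supplied symbols, a single one for 12783 probe sets. Slopes per SD of a measure over the 9 rats were fitted with limma 3.58.1, run in R 4.3.3 (lmFit and eBayes, 7 residual degrees of freedom, two-sided, Benjamini-Hochberg over 9520). The SD of the 9 rats was kept where rats were left out. Single correlations had two-sided exact permutation tests that ran through all 362880 orders of 9 rats, or 5040 of 7, whose smallest p for untied values is 2.76e-06 or 0.000198. Python 3.11.15, numpy 2.4.6, pandas 2.3.3, scipy 1.17.1 and matplotlib 3.10.9 were used. Simulated slopes of known size served to check the limma code. Depth has no counterpart on arrays, and the number of arrays limits precision.

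The 9 genes, the lists and the named-gene rule were chosen with earlier results of these data known. All members are named, those with an unadjusted limma p under 0.05 carry values for every rat, up to 4 genes per other list by smallest startle p are named, and the 2 genes most alike to each member were ranked. Symbols that start with LOC, RGD, MGC or AABR were passed over for the most alike. Alternatives were no filter, quantile normalization again, ranks of the measure, rats 8 and 9 left out or given a term, array quality weights, leaving out each rat in turn and a gene's other probe set. For correlations between members and for rats 8 and 9 against the others, alternatives were chosen after seeing the data. Members called were counted in the planned fits.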

Additional observations from a re-analysis of the deposited data

Results flagged for a closer look

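The Dnm1 value of rat 3, the lowest of the 9, stood far from the rest, with a gap to the next rat of 0.554 of the whole range, above Dixon's 95% critical value for 9 samples. It was 11.63 on the log2 scale, where the other rats had 12.07 to 12.43. Rat 3 also had the highest startle, the highest microglia, endothelial and astrocyte marker signal and the lowest pan-neuronal and GABAergic marker signal. The same comparison was made for 18 sets of 9 values, the 14 probe sets and the 4 measures, and chance flags about 1 in 20. The part of tissue composition in this value was not tested.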

How the results depend on the processing

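No slope of a member reached an adjusted p of 0.05 in any setting, and the lowest over the startle fits that leave out 1 rat was 0.174. The startle slopes of Syn1, Dnm1, Vamp2 and Slc17a7 stayed negative in all settings run. Over all 9 genes, 49 of 58 startle values under the alternatives and 72 of 81 without 1 rat kept their sign. For locomotion these were 47 of 58 and 70 of 81, for plus maze 53 of 58 and 75 of 81, and for sugar feeding 39 of 58 and 60 of 81. The sign turned for Syn2 on startle at -0.10 without rats 8 and 9, -0.065 with a term for them, -0.0076 with array weights and -0.27 with its other probe set, which also gave -0.13 on plus maze and 0.023 on sugar feeding. On startle it turned for Snap25 at 0.0050 and Stx1a at 0.0024 with quantile normalization, for Stx1a at 0.0059 with ranks and 0.012 with the term for rats 8 and 9, and for Rab3a at 0.0087 with that term. Without 1 rat in turn, startle slopes ran from -0.072 to 0.14 for Syn2, -0.040 to 0.045 for Snap25, -0.036 to 0.014 for Stx1a and -0.099 to 0.022 for Syp. The Dnm1 slope on locomotion ran from -0.044 to 0.20 and the slopes on sugar feeding from -0.026 to 0.061 for Stx1a and -0.31 to -0.016 for Syn2. The Vamp2 slope on startle ran from -0.26 to -0.068. The causes were not tested.

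Without the filter, 1 probe set passed the adjusted threshold on startle and 2458 the unadjusted, against 0 and 1260, with more probe sets tested. Unadjusted counts on locomotion, 187, were 416 without rats 8 and 9, 303 with a term for them, 121 with weights, and 155 to 937 without 1 rat, the highest without rat 1. On plus maze, 285, the count was 1158 with weights. On sugar feeding, 133, counts were 212 without the filter, 262 without rats 8 and 9, 240 with a term and 103 to 1329 without 1 rat, the highest without rat 4. Among the 9 genes, 1 on locomotion was 0 with ranks, the term or weights and 0 to 2 without 1 rat, and 0 on plus maze was 1 with quantile normalization, ranks or weights and 0 to 1 without 1 rat, as on sugar feeding. On startle, 3 of the 9 were 2 to 4 over all settings. The other probe set of Vamp2 gave no value, being below the filter. No paired analysis was possible because the rats form 1 group.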

Other observations

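The second probe set of Vamp2 had a mean log2 of 2.00 with an SD of 0.029, below the lowest mean kept of 3.22, and gave no further values. Over rats 1 to 7 a few relations appeared that all 9 rats did not show at that strength. The second Slc17a7 probe set went with sugar feeding at rho = -0.929 (exact permutation p = 0.00675), against -0.267 (exact permutation p = 0.49) over 9 rats. The second Syn1 probe set went with locomotion at rho = -0.893 (exact permutation p = 0.0123), against -0.267 (exact permutation p = 0.49) over 9 rats. Rab3a went with plus maze at rho = 0.901 (exact permutation p = 0.00952), against 0.319 (exact permutation p = 0.397) over 9 rats. These 3 were picked from 52 relations after their values were seen, and none passed limma's adjusted threshold over rats 1 to 7. Among genes closest to a member over rats 1 to 7, Fto had r = 0.973 with Syn2, Lrrc4b 0.987 with Snap25, Fam168b 0.991 with Stx1a, Itpka, a kinase of inositol trisphosphate in neurons, 0.989 with Dnm1, the neuropeptide gene Adcyap1 0.978 with Rab3a and Akt2 0.980 with Slc17a7.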
